A study of Mus musculus with 4 samples.

Results

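The genes described here encode chromatin remodelling enzymes, their accessory subunits, and the enzymes, readers and cofactors of histone acetylation. They were chosen by gene symbol, with a pattern that takes the Smarc, Arid, Chd, Ino80, Brd, Baz, Kat, Hdac, Ncoa, Ncor and Sirt families together with Bptf, Ep300, Ep400, Crebbp and Trrap. The pattern itself uses no read value, but the group was proposed with earlier results of these data known. The pattern found 42 of the 5614 genes listed in 2 libraries of transposon mutants. Each library was a pool of haploid cells of mouse strain background 129Sv, described as neural stem cell-like. These cells were made from haploid embryonic stem cells through embryoid bodies and a medium with FGF2, EGF, LDN193189, SB431542 and a ROCK inhibitor, which was Y-27632, Thiazovivin or both (which of these each library received is not given in the sources used here).

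Both libraries share this background, the transfected piggyBac gene trap plasmid with its transposase, and G418 selection of cells in which a gene was trapped. Library 1 and library 2 each consist of 2 samples that the authors pooled into 1 table, so every value per library stands without a replicate. The sample titles within a library differ in a last number that the labels do not explain. The sources used here do not say whether the samples of a library cover different ends of the transposon, in which case 1 insertion could give reads from both sides. No difference in treatment between the libraries is labelled. Transposon junctions were amplified from genomic DNA by splinkerette PCR, in which fragments carrying an adapter with a single-stranded stretch are amplified with nested primers. DNA reads carry no marker of cell identity, so the cell type is taken from the labels. Library 1 listed 4184 genes with 55442 nonredundant reads, and library 2 listed 3168 genes with 48750. Reads are PCR products without molecular identifiers, so the intervals below (exact Clopper-Pearson, 95%) cover counting error only, and reads count neither insertions nor cells. Read counts were not scaled to gene length.

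Remodelling complexes use the energy of ATP to slide, evict or exchange nucleosomes. The SWI/SNF family (BAF and PBAF), ISWI, CHD and INO80 families differ in the motor subunit and in the partners that recruit it. Histone acetyltransferases loosen nucleosome contacts and create docking sites for bromodomains, histone deacetylases (HDACs) and sirtuins remove the mark, and the NCOA and NCOR proteins bring these enzymes to nuclear receptors. In neural progenitors an exchange of BAF subunits accompanies the step to neurons. In a haploid cell an insertion that inactivates such a gene leaves no second copy.

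Reads of the group came mostly from 3 genes, 2 of them in library 1 and 1 in library 2. Reads were also uneven over all listed genes, with a median of 1 in each library and a highest count of 1506 in library 1 and 4988 in library 2. Kat6a had 256 nonredundant reads in library 1, and library 2 did not list it. It encodes a histone acetyltransferase of the MYST family, also known as MOZ, that is required for blood stem cells in mice. Brd8, a bromodomain subunit of the TIP60/p400 acetyltransferase and remodelling complex, had 220 reads in library 1 and was likewise missing from the list of library 2. Arid5b, which encodes a DNA-binding protein with an AT-rich interaction domain that partners the demethylase PHF2, had 1 read in library 1 and 329 in library 2. The fourth gene with 10 or more reads was Crebbp, encoding the acetyltransferase CBP, which was not listed in library 1 and had 11 reads in library 2.

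In library 1, Kat6a held 0.462% of all nonredundant reads (0.407 to 0.522) and ranked 41 among the listed genes. Brd8 held 0.397% (0.346 to 0.453) and ranked 53, and the intervals of both genes overlap. In library 2, Arid5b held 0.675% (0.604 to 0.752) and ranked 25, whereas Crebbp held 0.0226% (0.0113 to 0.0404) and ranked 269. No member other than these 4 had more than 6 nonredundant reads in a library. The share of Arid5b in library 1 was 0.00267 times that in library 2 (interval of the ratio 6.75e-05 to 0.015), which is 374 times higher in library 2 (66.7 to 14800). The single read in library 1 sets the width of that interval. No ratio is given for Kat6a, Brd8 and Crebbp, since each was listed in 1 library.

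**Figure D1:**
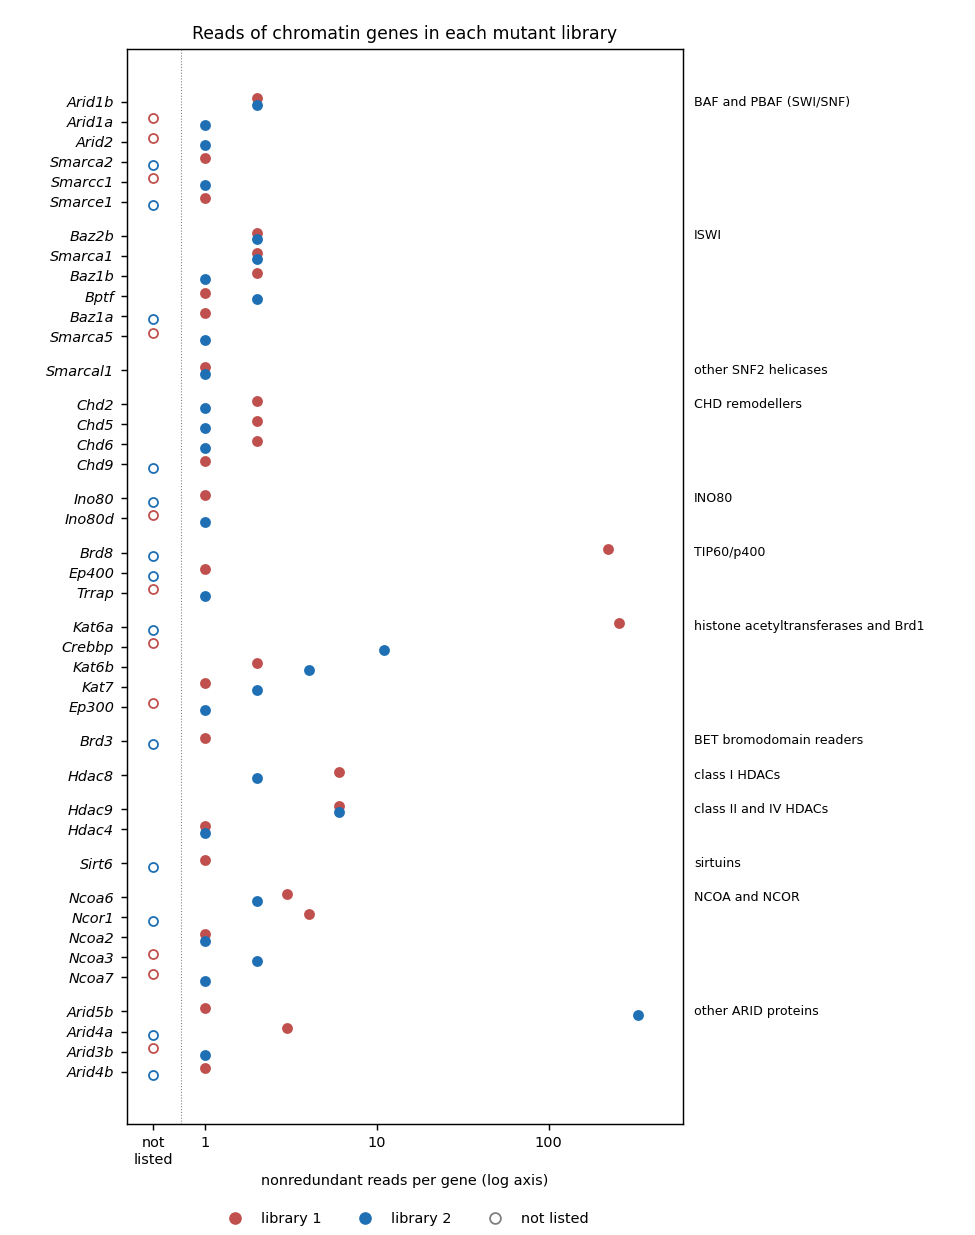
Nonredundant reads of each member named in the text (log axis) in library 1 (red) and library 2 (blue), grouped by complex; open circles stand for genes not listed. Kat6a (256) and Brd8 (220) stand apart in library 1 and Arid5b (329) in library 2, while Crebbp reached 11 reads in library 2.

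Windows upstream of the annotated start are shown for Arid5b and Crebbp because they are among the 4 members with 10 or more reads in a library, and because piggyBac inserts at the tetranucleotide TTAA. The tables give no insertion positions, so the windows show sequence only and no site. No window was available for Kat6a or Brd8, which lead in library 1 and are therefore missing from the comparison of windows below. Each window shown is the 250 bases before the start in RefSeq, build GRCm38.p6, 5′ to 3′. Every TTAA, which reads the same on both strands, is in capitals. The Arid5b window, at chr10:68278727-68278976 on the minus strand, held 0 such motifs with a GC content of 42.0%, and that of Crebbp, at chr16:4213405-4213654 on the minus strand, held 1 with 84.0%.
Arid5b: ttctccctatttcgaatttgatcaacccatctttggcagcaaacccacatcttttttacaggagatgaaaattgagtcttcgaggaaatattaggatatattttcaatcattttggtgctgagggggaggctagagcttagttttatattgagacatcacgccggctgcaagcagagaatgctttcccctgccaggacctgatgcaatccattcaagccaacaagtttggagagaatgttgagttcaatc
Crebbp: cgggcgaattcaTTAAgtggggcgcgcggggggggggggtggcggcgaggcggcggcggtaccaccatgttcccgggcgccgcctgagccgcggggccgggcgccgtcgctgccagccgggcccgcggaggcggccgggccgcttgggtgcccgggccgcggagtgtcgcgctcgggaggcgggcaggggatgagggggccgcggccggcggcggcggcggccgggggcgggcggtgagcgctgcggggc

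A promoter window was available for 31 of the 42 members, with the first listed window taken where a gene had several. Of these, 11 held a TTAA (35.5%), against 46.0% of 16853 protein coding genes. The count is small, and the difference was not tested. The median GC content was 63.6% in the members' windows and 55.6% in those of all protein coding genes. Ncor1 held the most motifs, 3, in the window with the lowest GC content of the members, 36.8%.

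Below these 4 genes the shares were small and the intervals wide. Hdac9, a class II deacetylase, held 0.0108% of the reads in library 1 (0.00397 to 0.0236) and 0.0123% in library 2 (0.00452 to 0.0268). Hdac8, a class I deacetylase, held 0.0108% in library 1 (0.00397 to 0.0236) and 0.0041% in library 2 (0.000497 to 0.0148). Kat6b held 0.00361% in library 1 (0.000437 to 0.013) and 0.00821% in library 2 (0.00224 to 0.021). For each of these genes the intervals of the libraries overlapped. They also overlapped for the coactivator gene Ncoa6, with 0.00541% in library 1 (0.00112 to 0.0158) and 0.0041% in library 2 (0.000497 to 0.0148). Arid1b, Baz2b and Smarca1, with 4 reads each in sum, held 0.00361% in library 1 (0.000437 to 0.013) and 0.0041% in library 2 (0.000497 to 0.0148). Ncor1 had the same sum in library 1 alone, 0.00721% (0.00197 to 0.0185).

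The group as a whole had 529 nonredundant reads in library 1, or 0.954% of the library (0.875 to 1.04), and 383 in library 2, or 0.786% (0.709 to 0.868). Kat6a alone made up 48.4% of the members' reads in library 1 (44.1 to 52.7) and Brd8 41.6% (37.4 to 45.9). Arid5b made up 85.9% of those in library 2 (82.0 to 89.2). Without the genes at 10 or more reads, the members held 53 reads or 0.0956% in library 1 (0.0716 to 0.125) and 43 reads or 0.0882% in library 2 (0.0638 to 0.119). The genes set aside there were chosen by the counts being compared, so these remainders are a description. Which library had the larger summed share depended on the scaling. With totals that leave out the 10 leading genes of each library, the members' share came to 1.14% in library 1 and 1.36% in library 2.

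The median member had 1.5 reads in library 1 and 1 in library 2, against a median of 1 over all listed genes in both libraries. Of the 30 members listed in library 1, 15 had 2 or more reads (50.0%), against a background of 46.3% of all genes listed there. Of the 29 in library 2, 12 had 2 or more (41.4%), against 40.3%. At 10 or more reads there were 2 members in library 1 (6.67%, 0.818 to 22.1), against 11.9% of its listed genes, and 2 in library 2 (6.9%, 0.846 to 22.8), against 9.28%. At 100 or more reads there were 2 members in library 1, where 3.01% of listed genes reached this level, and 1 in library 2, where 2.46% did. Genes are not replicates, so the intervals on counts of genes, here and below, are a description and no test.

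**Figure D2:**
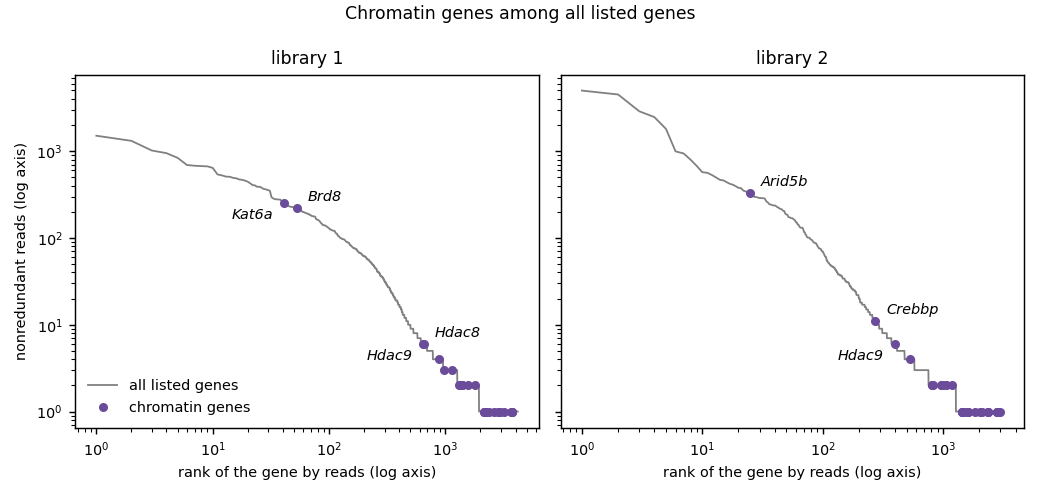
Nonredundant reads (log axis) against the rank of each gene by reads (log axis) in library 1 (left) and library 2 (right), with all listed genes as a grey line and the chromatin genes as purple points. Kat6a at rank 41, Brd8 at 53 and Arid5b at 25 lie in the upper part of the curve, Crebbp lies at rank 269, and no other member has more than 6 reads.

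A larger share of the group than of all genes was listed, and the listed members were mostly long genes. The symbol pattern matches 91 protein coding genes of RefSeq. Among them Brd3os, which was not listed, and Brd8dc match by name alone and belong to none of the gene groups described below. Of these, 43 were listed in either library (47.3%, 36.7 to 58.0), against 26.6% of all 21031 protein coding genes. This count includes Brd8dc, which was listed in library 2 under an older symbol, 4933408B17Rik, with 1 read, and is not counted among the 42. In library 1, 30 of the 91 were listed (33.0%), against 19.9%. In library 2 it was again 30 (33.0%), against 15.0%, and in both libraries 17 (18.7%), against 8.25%.

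Genes were ordered by length and split into 10 classes of equal size. The 91 genes had a median length rank of 76.6 on a scale where 50.0 is the median of all protein coding genes and 100 the longest. In the longest class 19 of 21 were listed (90.5%, against 81.7% of all genes in it), in the ninth class 16 of 22 (72.7%, against 56.9%) and in the eighth 4 of 9 (44.4%, against 42.0%). In the seventh class it was 1 of 12 (8.33%, against 30.7%), namely Brd8, and over the 6 shortest classes 3 of 27 (11.1%, against 9.17%). The 3 include Brd8dc. The members' shares thus lay above those of all genes in the 3 longest classes. Counted from the shortest, they lay below in classes 1, 2, 4, 6 (10.0%, against 21.3%) and 7. In class 3 (20.0%, against 5.28%) and class 5 (20.0%, against 15.3%) they lay above. The 27 genes of the 6 shortest classes had a median length rank of 42.1, against 30.0 for all genes there. Their pooled share is therefore not compared at equal length. These are small counts and were given no test.

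Listed genes of the group had a median length rank of 89.3 and those not listed 60.2. Among the listed ones, genes found in both libraries had a median rank of 93.9 and those in 1 library 86.7. The 4 genes with 10 or more reads were spread over the upper range, with Arid5b at rank 94.9, Crebbp at 92.0, Kat6a at 86.0 and Brd8 at 61.1. The shortest listed member was Sirt6, a deacetylase of the sirtuin family, at rank 24.8 with 1 read in library 1.

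**Figure D3:**
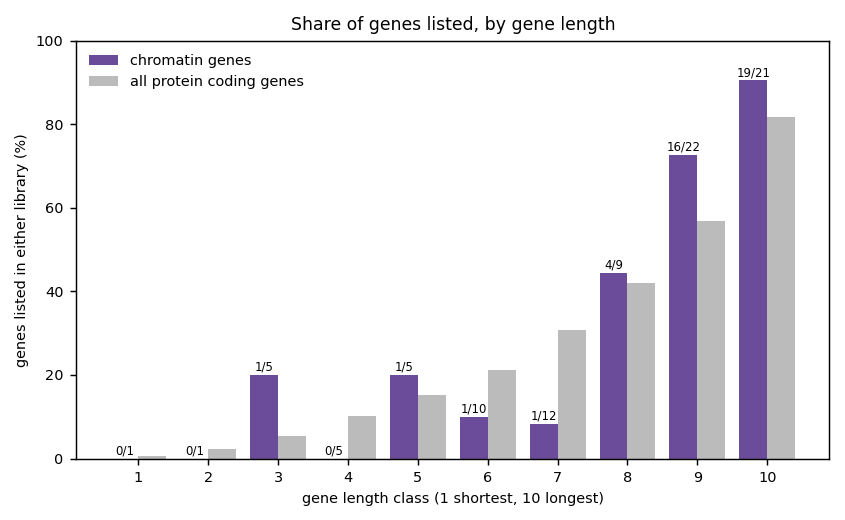
Percent of genes listed in either library (y axis) in 10 classes of gene length (x axis), for genes matching the chromatin pattern (purple, with listed genes over all genes of the class) and all protein coding genes (grey). Both sets of bars are highest in the longest class, at 90.5% and 81.7%. Counted from the shortest class, the chromatin genes fall below the grey bar in classes 1, 2, 4, 6 and 7, in class 7 at 8.33% against 30.7%.

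Of the 42 members, 13 were in library 1 alone (31.0%), 12 in library 2 alone (28.6%) and 17 in both (40.5%), whereas of all 5614 listed genes 43.6% were in library 1 alone, 25.5% in library 2 alone and 31.0% in both. Of the 25 members found in 1 library, 19 had a single read. The same share over all genes found in 1 library is not given here. Among all members listed in library 1, 50.0% had exactly 1 read, against 53.7% of all genes listed there. In library 2 it was 58.6%, against 59.7%. Members in both libraries were compared by the ratio of their shares of reads, library 1 over library 2. The median ratio was 0.879 for the 17 members and for all 1738 such genes, which is the ratio a gene with equal reads in both libraries takes. None of the 17 was 10-fold or more higher in library 1, where 9.78% of all shared genes were, and 1, Arid5b, was 10-fold or more higher in library 2, where 7.59% were. The other 16 had ratios between 0.44 and 2.64, 7 of them with equal reads. The highest ratio was that of Hdac8, with 6 reads in library 1 and 2 in library 2, a ratio of 2.64 whose interval reached from 0.472 to 26.7. Baz1b, Chd2, Chd5 and Chd6 followed with 2 reads in library 1 and 1 in library 2 (ratio 1.76). At the low end after Arid5b stood Kat6b, Bptf and Kat7 at 0.44. The intervals of these 8 ratios all include 1.

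Listing within a group is read against 26.6% of all protein coding genes, and against the higher shares given above for long genes. Among 9 acetyltransferases and Brd1, a scaffold subunit of MYST complexes, 5 of 10 genes were listed, and the reads of close relatives differed widely. Kat6a had 256 reads in library 1 and none listed in library 2, while Kat6b, its paralog (MORF), had 2 reads in library 1 and 4 in library 2. Crebbp had 11 reads and Ep300, its paralog (p300), 1 read, both in library 2 only. Kat7 (HBO1), another MYST enzyme, had 1 read in library 1 and 2 in library 2. Kat2a, Kat2b, Kat8, Kat14 and Brd1 were not listed. Of the TIP60/p400 genes, Brd8 had 220 reads and the motor subunit Ep400 1 read in library 1, the scaffold Trrap had 1 read in library 2, and the catalytic subunit Kat5 was not listed.

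Of the 18 deacetylase genes 4 were listed (22.2%, 6.41 to 47.6), against 26.6% of all protein coding genes, and none of them had more than 6 reads. Of the class I enzymes, which act in the nucleus, 1 of 4 was listed. This was the X-linked Hdac8, a deacetylase of cohesin, whereas Hdac1, Hdac2 and Hdac3 were not. Of class II and IV, 2 of 7 were listed. Hdac9 had 6 reads in library 1 and 6 in library 2 and is, at length rank 99.6, the longest member. Hdac4 had 1 read in each library, and Hdac5, Hdac6, Hdac7, Hdac10 and Hdac11 were not listed. Of the 7 sirtuins Sirt6 alone was listed, with Sirt1, Sirt2, Sirt3, Sirt4, Sirt5 and Sirt7 absent from both tables. The sirtuin genes lie at length ranks 24.8 to 64.7, in classes where 5.28% to 30.7% of all genes were listed. The BET bromodomain readers gave 1 of 3, Brd3 with 1 read in library 1.

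Among the remodelling genes that the symbol pattern takes, none of the SWI/SNF, ISWI, CHD or INO80 groups had more than 2 reads in a library, where the median listed gene had 1. Partner subunits with other symbols are given further on, some of them at higher counts. In SWI/SNF 6 of 14 genes were listed. Arid1b, a DNA-binding subunit of BAF, had 2 reads in each library, and its paralog Arid1a and the PBAF subunit Arid2 had 1 read each in library 2. The ATPase gene Smarca2 and the subunit gene Smarce1 had 1 read each in library 1, and the core subunit gene Smarcc1 had 1 in library 2. The other ATPase gene, Smarca4, was not listed, nor were Smarcb1, Smarcc2, Smarcd1, Smarcd2, Smarcd3, Brd7 and Brd9.

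ISWI genes were listed in 6 of 7 cases, 4 of them in both libraries. These 7 are long genes, at length ranks 70.6 to 97.5, and lie in the 3 longest classes, where 42.0%, 56.9% and 81.7% of all genes were listed. The ATPase gene Smarca1 and the reader Baz2b had 2 reads in each library. Bptf, the large subunit of the NURF complex, had 1 read in library 1 and 2 in library 2, and Baz1b had 2 and 1. Baz1a had 1 read in library 1, the second ATPase gene Smarca5 had 1 in library 2, and Baz2a was not listed. Of the CHD remodellers 4 of 10 were listed, namely Chd2, Chd5 and Chd6, each with 2 reads in library 1 and 1 in library 2, and Chd9 with 1 read in library 1. Chd1, Chd1l, Chd3, Chd4, Chd7 and Chd8 were not. INO80 gave 2 of 5 genes, the ATPase Ino80 with 1 read in library 1 and Ino80d with 1 in library 2, while Ino80b, Ino80c and Ino80e were not listed. Of the other SNF2 helicases, Smarcal1, which anneals DNA at stalled replication forks, had 1 read in each library and Smarcad1 was not listed.

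Among the cofactors of nuclear receptors 6 of 9 were listed. Ncoa6 had 3 reads in library 1 and 2 in library 2, and Ncoa2 had 1 in each. Ncoa3 (2 reads) and Ncoa7 (1 read) were in library 2 alone, and Ncoa1, Ncoa4 and Ncoa5 were not listed. Ncor1, the corepressor scaffold that binds HDAC3, had 4 reads in library 1. Of the remaining ARID genes, Arid4a (3 reads) and Arid4b (1 read), whose products belong to SIN3 deacetylase complexes, were in library 1 alone. Arid3b had 1 read in library 2, and Arid3a, Arid3c and Arid5a were not listed.

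**Figure D4:**
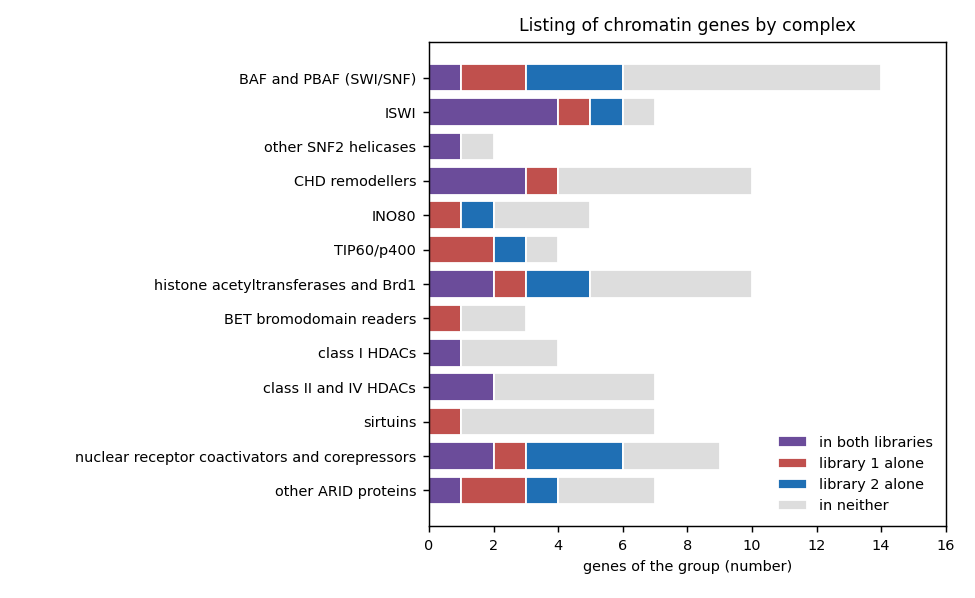
Number of genes (x axis) of each complex or family that were listed in both libraries (purple), library 1 alone (red), library 2 alone (blue) or neither (grey). ISWI, whose genes are long, had 6 of 7 genes listed, 4 of them in both libraries. The sirtuins, at length ranks 24.8 to 64.7, had 1 of 7. Of all protein coding genes 26.6% were listed. The share was 42.0% to 81.7% in the length classes of the ISWI genes and 5.28% to 30.7% in those of the sirtuins.

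Paralog pairs were set side by side, 21 in all. Both genes were listed in 8 pairs, 1 gene in 7 and neither in 6. Where 1 gene was listed it was the longer one in 6 of the 7 pairs, as in Smarca2 over Smarca4, Chd2 over Chd1 and Baz2b over Baz2a. In the longest class the genes not listed were Chd7 (length rank 94.6), a remodeller of neural crest and progenitor enhancers, and Ncoa1 (96.2).

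The redundant counts, which were never below the nonredundant ones, gave a partly different picture. Brd8 had 6021 redundant reads in library 1, 27.4 per nonredundant read, and Kat6a 2756, or 10.8 per nonredundant read, so their order was the reverse of that by nonredundant reads. Over all genes of library 1 the figure was 15.8. Arid5b had 1 redundant read in library 1 and 3736 in library 2, there 11.4 per nonredundant read, against 26.7 over all genes of library 2. The members' share of redundant reads was 1.01% in library 1 (0.992 to 1.03) and 0.294% in library 2 (0.285 to 0.303). Both counts were equal in 15 of 30 members in library 1 (50.0%), against 56.4% of its listed genes, and in 21 of 29 in library 2 (72.4%), against 56.2%. Scaled to redundant reads, Hdac8 (ratio 14.8, library 1 over library 2) and Chd2 (11.8) passed 10-fold, which they did not by nonredundant reads. These ratios rest on 20 against 2 redundant reads for Hdac8 and 8 against 1 for Chd2. How many of all shared genes passed 10-fold by redundant reads is not given here. Chd9 in library 1 and Smarcc1 in library 2 each had 7 redundant reads for 1 nonredundant read.

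**Figure D5:**
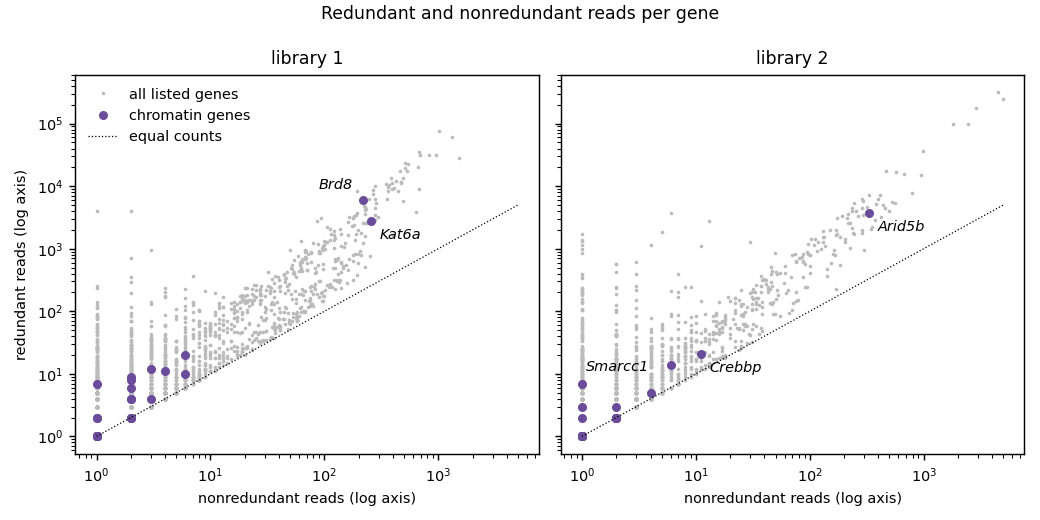
Redundant reads (y axis, log) against nonredundant reads (x axis, log) per gene in library 1 (left) and library 2 (right), for all listed genes (grey) and the chromatin genes (purple); the dotted line marks equal counts. Brd8 lies above Kat6a with 6021 against 2756 redundant reads, and Smarcc1 has 7 redundant reads for 1 nonredundant read.

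Partner subunits outside the symbol pattern gave a further view of the same complexes. Of 87 such genes 26 were listed (29.9%), close to the 26.6% of all protein coding genes, with a median length rank of 63.2 over the 87. They comprised 6 of 16 for SWI/SNF, 0 of 2 for ISWI, 3 of 9 for NuRD, 1 of 7 for INO80, 4 of 14 for TIP60/p400 and SRCAP, 4 of 14 for the MYST complexes, 4 of 11 for SAGA and 4 of 14 for HDAC corepressor complexes. At 10 or more reads were 3 of the 24 listed in library 1 (12.5%), against 11.9% of all genes listed there, and 0 of the 11 in library 2, against 9.28%. Dpf3, a histone reader subunit of BAF in muscle and neurons, had 139 reads in library 1 and 2 in library 2, a ratio of 61.1 (16.6 to 510.0). Atxn7, a subunit of the SAGA coactivator, had 75 reads in library 1 and no entry for library 2. Bicral, which encodes a subunit of a BAF variant and was listed as Gltscr1l, had 15 reads in library 1 and 1 in library 2 (ratio 13.2, interval 2.03 to 555.0). Of the 26 listed partners 15 were in library 1 alone (57.7%, against 43.6% of all listed genes), 2 in library 2 alone (7.69%, against 25.5%) and 9 in both (34.6%, against 31.0%).

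A listing at 1 or 2 reads is weak evidence of a trapped gene. Haploid mouse embryonic stem cells carry an X and no Y chromosome, and 8 genes of the Y chromosome were listed, with at most 2 reads. Of the members, 37 of 42 had fewer than 10 reads summed over both libraries (88.1%), against 85.4% of all listed genes.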

How the data were processed

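Each of the 2 deposited tables pools 2 samples and holds, per the file headers, gene symbols with RefSeq transcripts, a count of nonredundant reads and one of redundant reads. The deposited values are raw counts, whole numbers from 1 upwards with no normalization by the authors. CASAVA, BWA and build mm9 are named, per the submitters' processing notes. How reads were assigned and filtered, and what nonredundant means, is not given in the sources used here.

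Members, gene groups, partner genes and paralog pairs were chosen with earlier results of these data known. Nonredundant reads were the main value. Every member with 10 or more reads in a library was named, the others by group, as were partners with 10 or more reads and the members with extreme ratios. With 1 table per library there was no test and no p-value. A difference of 10-fold in the share of reads was called for genes in both libraries, with an exact binomial interval. Genes were matched by symbol, transcript or synonym (5612 of 5614) to a RefSeq table of GRCm38.p6, a build other than the authors', whose lengths served to rank genes. The ratio and its interval were checked on simulated counts with known ratios. These had no amplification noise, and their means were set above the reads of most members. The check therefore does not show how the interval behaves for genes with few reads in both libraries. Python 3.11.15, pandas 2.3.3 and SciPy 1.17.1 were used. Settings (read column, read minimum, library total, older symbols, fold, leading gene) were varied. Genes not reported here by name remain in the counts. Leaving out a sample was not possible in pooled tables.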

Additional observations from a re-analysis of the deposited data

How the results depend on the processing

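No paired analysis was possible because each table pools its 2 samples without a column per sample, and no result comes from a test; for the same reason no sample could be left out. A minimum of 2 nonredundant reads kept 15 members in library 1 and 12 in library 2, against 30 and 29 listed. Members at 10 or more reads, 2 in each library, became 6 in library 1 with redundant reads and 4 at a minimum of 5. In library 2 there was 1 at a minimum of 100. For redundant reads and for the minimum of 5, the share of all listed genes is not given here. The members' share of reads, 0.954% in library 1 and 0.786% in library 2, was 1.14% and 1.36% with a total without the 10 leading genes of each library, so that scaling turned the order of the libraries. It was 0.492% in library 1 without Kat6a and 0.111% in library 2 without Arid5b. With redundant reads it was 0.294% in library 2. With redundant reads 2 members passed 10-fold in library 1, Hdac8 (ratio 14.8) and Chd2 (11.8), against 0 by nonredundant reads. For redundant reads no share of all shared genes is given beside this count. With at least 2 reads required in both libraries 0 passed in library 2, because Arid5b has 1 read in library 1. The other 18 recomputed counts and shares moved by at most 1.5 times or within counting error. So did the ratios of all 17 shared members with redundant reads and without the leading genes, but their intervals were wide enough to hold large moves. With redundant reads the ratio of Arid1b went from 0.879 to 6.66 and that of Hdac4 from 0.879 to 0.494. At this depth, 1 or 2 reads for most members, the interval of every ratio but that of Arid5b includes 1.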

Other observations

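The 2 protein coding genes on each side of the 4 leading members had few reads. Next to Arid5b, Rtkn2 had 2 reads in library 2, Zfp365 1 in library 2, and Cabcoco1 and Tmem26 1 each in library 1. Next to Kat6a, Ank1 had 2 reads in library 2, while Ap3m2, Plat and Nkx6-3 were not listed. Next to Brd8, Nme5 and Cdc23 had 1 read each in library 1, Brd8dc had 1 in library 2 and Kif20a was not listed. Next to Crebbp, Trap1 had 1 read in library 1, the adenylate cyclase gene Adcy9 had 3 in library 2, and Dnase1 and Srl were not listed.

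Uchl5, a deubiquitinase of the INO80 complex, had 48 redundant reads for 2 nonredundant reads in library 1.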
